A study of Sus scrofa domesticus with 2 samples.

Results

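STMN1 and STMN2 encode stathmins, small phosphoproteins that bind tubulin. They are 2 of the 22804 genes counted in single-cell RNA sequencing (scRNA-seq) of cultured endothelial cells (ECs), the cells that line blood vessels, from the lung and the aorta of domestic pigs. Both were found by name in the features of each library, STMN1 as ENSSSCG00000026257 and STMN2 as ENSSSCG00000006160. They were chosen by their measured levels in these same libraries, namely the share of cells and the level in endothelial and collagen-high cells of each tissue and the relation to the cell cycle. All values of these kinds below are therefore a description and support nothing further. The cells labelled lung ECs came from a perfused lung lobe digested with collagenase, and those labelled aorta ECs from the sealed aorta near to the lung. Both were primary cells grown without sorting in the same medium with 10% fetal calf serum and no other treatment, and there was 1 library of each. The labels give no age, passage number or number of animals.

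Stathmins hold free tubulin dimers and promote the shortening of microtubules, and mitotic kinases switch them off by phosphorylation when the spindle forms. STMN1 is the cytosolic member, known for high levels in dividing cells. STMN2, also called SCG10, carries an additional N-terminal stretch that is palmitoylated and anchors it to Golgi and vesicle membranes, and it is known chiefly from growing axons.

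In the RefSeq annotation of Sscrofa11.1, STMN1 lay on the minus strand at chr6:83356404-83362546 and STMN2 on the minus strand at chr4:56952968-57006744. The 3 annotated STMN1 transcripts had 3 different starts and the same 4 coding exons, which encode 149 residues. The 1 annotated STMN2 transcript had 5 coding exons for 179 residues. Over 145 aligned residues the proteins were identical at 100 (69.0%), and 34 residues of STMN2 preceded the aligned stretch. The 250 bases before a start of STMN1 are shown because its level differed across the cycle. Capitals mark matches to a short motif on either strand.

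STMN1, chr6:83361167-83361416, minus strand: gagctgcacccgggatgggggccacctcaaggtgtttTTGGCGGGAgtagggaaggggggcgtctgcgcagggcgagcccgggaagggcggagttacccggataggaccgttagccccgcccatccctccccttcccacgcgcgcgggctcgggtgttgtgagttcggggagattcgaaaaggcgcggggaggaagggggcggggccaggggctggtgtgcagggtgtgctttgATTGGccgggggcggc

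The window had 70.0% GC and 22 CpG pairs. It held a CCAAT box (CCAAT) on the opposite strand 16 bases before the start, a motif found in 31.9% of 19572 promoter windows of the same length. It also held TTGGCGGGA, a form of the E2F motif, 213 bases before the start, which 0.281% of windows held. It held neither the cell cycle homology region motif (TTTGAA, 12.5% of windows), nor the E2F forms TTTCCCGC (1.42%) and TTTGGCGC (0.572%), nor a TATA box (TATAAA, 9.76%). The window before the STMN1 start at 83362546 held none of these motifs, and the one before 83360335, which overlapped an annotated exon, held TTTGAA 3 times. No matches overlapped in the window shown. The STMN1 start and the third E2F form were chosen after the sequences had been seen. The 19572 windows were 1 per gene, before its outermost start, which for STMN1 was 83362546. The shares of windows thus do not measure how unusual a match is at a start picked from 3. Counts from the 3′ ends of transcripts do not show which of the starts was used.

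In the lung library 5683 of 5946 deposited cells passed the limits of the study on detected genes and mitochondrial share, with a median of 9453 unique molecular identifiers (UMIs) per cell. In the aorta library, only 246 of 1185 passed, with a median of 4691 UMIs, because 709 cells had 5000 genes or more. Without the upper limit 955 aorta cells were kept, with a median of 52080 UMIs, and these are called the deep aorta set. The study gives this upper limit as its filter for doublets, and the part of doublets in the deep set was not tested. Clusters were named from markers. The 4928 endothelial-like lung cells held 3314 CPM (UMIs per 1000000 UMIs of the class, pooled over cells) of 13 endothelial markers in sum, against 394 CPM in the 334 collagen-high lung cells, though VWF was at 0.357 CPM. The aorta had 160 endothelial-like, 66 EndMT-like (endothelial-to-mesenchymal transition) and 20 collagen-high cells under the limit. The deep set had 632 endothelial-like, 142 collagen-high, 65 EndMT-like and 116 unnamed cells. EndMT-like cells were named from mesenchymal markers. In the deep set they held 71.5 CPM of the endothelial markers, against 3254 CPM in endothelial-like cells, so their name shows no endothelial origin. The libraries shared 5 cell barcodes. With 1 library a tissue there was no replicate check and no test. Intervals are 95% and cover counting error only, and for STMN2 they are too narrow because its UMIs lay in few cells. Because each transcript molecule is counted at its 3′ end, levels in CPM needed no correction for length. Fewer cells with a transcript and less of it per cell are separated below by shares and by UMIs per cell.

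STMN1, the cytosolic stathmin, had a UMI in nearly all endothelial-like lung cells. Its level was 588 CPM (582 to 595, from 29641 UMIs), and 95.01% of the cells (94.4 to 95.6) had at least 1 UMI. In collagen-high lung cells the level was 363 CPM (344 to 382) and the share of cells 88.6% (84.7 to 91.8). Endothelial-like cells thus held 1.62-fold the collagen-high level (1.54 to 1.71). The 88 immune-like lung cells had 705 CPM (651 to 762), and 18.2% of them were in G1. The order of the classes differed between phases. In G1 the immune-like cells were lowest, at 136 CPM (77.6 to 220, from 16 UMIs). The collagen-high G1 cells had 212 CPM (186 to 240), an overlapping interval, and the endothelial-like 405 CPM. In S and G2M the immune-like cells were highest, at 757 and 883 CPM. There the endothelial-like cells had 638 and 773 CPM, and the collagen-high cells 392 and 464 CPM. When each cell was thinned to 5200 UMIs, leaving out 117 endothelial-like and 21 collagen-high cells, the shares were 88.9% and 76.7%, the same order as without thinning.

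STMN2, the membrane-anchored stathmin, was present at a lower level and in few cells. Endothelial-like lung cells had 70.0 CPM (67.7 to 72.4, from 3529 UMIs), with a UMI in 13.5% of cells (12.6 to 14.5) at a median depth of 9581 UMIs. Collagen-high lung cells had 12.6 CPM (9.28 to 16.7, from 48 UMIs) and a share of 3.89% (2.09 to 6.56) at a median of 10721.5 UMIs. Immune-like lung cells had 11.12 CPM (5.33 to 20.5, from 10 UMIs) and a share of 5.68% (1.87 to 12.8) at a median of 10340.5 UMIs. The interval of the endothelial-like share did not overlap that of the collagen-high share, and it overlapped that of the immune-like share narrowly. After thinning the shares were 10.996%, 3.19% and 3.95%. The endothelial-like level was 5.57-fold that of collagen-high cells (4.19 to 7.57).

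Of 2920 genes at 50 CPM or more over both lung classes, 11.3% were at least 2-fold higher in endothelial-like cells and 2.36% at least 2-fold lower. STMN2 was among the former, ranked 89 from the highest, and STMN1 in neither set. The collagen-high UMIs of STMN2 lay in 13 of 334 cells, 45 of the 48 in cluster 7, which was led by ACTG2, PDGFRB and CSPG4, genes of mural cells. A single cell held 18 of them. These 13 cells had a median of 18554 UMIs, against 10607 in the other 321, and 1228 CPM of endothelial markers, against 339 CPM. After the 5% of cells with the highest doublet scores had been removed and the rest clustered anew, the collagen-high STMN2 level was 2.45 CPM. These scores came from a run whose doublet calls in the lung were not relied on. The 5 immune-like cells with STMN2 had 2753 CPM of endothelial markers, against 2008 CPM in the other 83. The 333 lung cells left unnamed had 46.8 CPM of STMN2 (34.5 to 62.1) and a median of 2857 UMIs. Those with STMN2 had 3257 CPM of endothelial markers and those without 3260 CPM, so these did not differ.

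**Figure D1:**
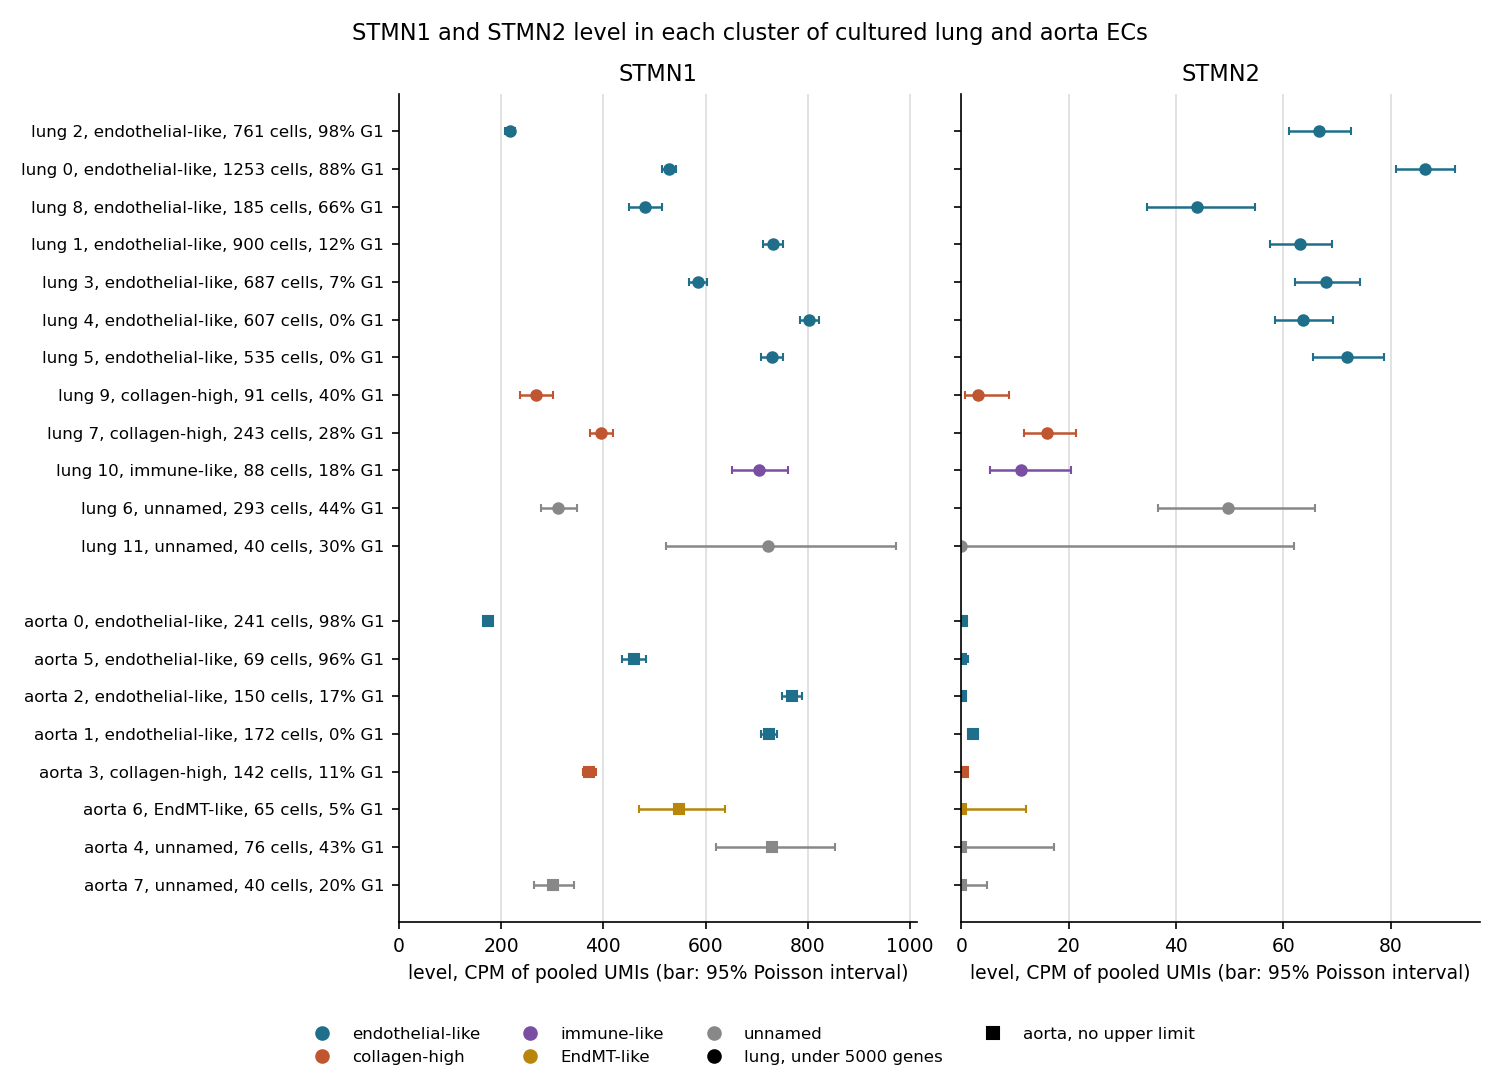
Pooled level of STMN1 (left) and STMN2 (right) in CPM in each cluster of the lung library and of the deep aorta set, with 95% Poisson intervals, coloured by class and labelled with the share of G1 cells. STMN1 spans 217 to 803 CPM across the endothelial-like lung clusters, whereas STMN2 stays between 43.8 and 86.3 CPM there and at 2.09 CPM or below in the aorta clusters that are endothelial-like.

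Across the 7 endothelial-like lung clusters STMN1 was lowest at 217 CPM (207 to 228) in cluster 2, led by SLPI, CRYAB and CFD, with 97.8% of its 761 cells in G1. It was highest at 803 CPM (784 to 822) in cluster 4, led by UBE2C, TOP2A and CENPF, with 98.0% of its 607 cells in G2M. The highest cluster was 3.69-fold the lowest. Cluster 0, whose cells were 88.0% in G1, had 528 CPM (515 to 542), so clusters of mostly G1 cells differed from each other by more than their intervals. Clusters 1 and 5 had 732 CPM (713 to 752) and 730 CPM (709 to 751) and did not differ beyond their intervals.

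STMN2 had another order. It was highest in cluster 0 at 86.3 CPM (81.0 to 92.0) and lowest at 43.8 CPM (34.6 to 54.8) in cluster 8, which was led by the interferon-stimulated genes CXCL10, RSAD2 and IFIT2. The highest cluster was 1.97-fold the lowest. The other 5 clusters lay between 63.1 and 71.9 CPM with overlapping intervals. Cells with 3 or more STMN2 UMIs made up 3.24% of cluster 8 and 9.39% of cluster 4.

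The STMN2 UMIs of the endothelial-like lung cells were concentrated in a minority of cells. Of the 4928 cells, 4262 had no UMI, 289 had 1 or 2 and 377 (7.65%) had 3 or more. The highest cell had 37. The cells with 3 or more held 89.5% of all STMN2 UMIs. The 247 cells with the most STMN2 held 75.7% of its UMIs, while the 247 cells with the most STMN1 held 13.9% of the STMN1 UMIs. Had the STMN2 UMIs been spread over the cells in proportion to their depth, 49.9% of cells would have had a UMI and 7.09 cells would have had exactly 5. Observed were 13.5% of cells, and 44 cells with exactly 5. For STMN1 the same calculation gave 99.2% of cells against the 95.01% observed.

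This distribution set STMN2 apart from genes of a like level. Among 883 other genes within 56.0 to 87.6 CPM in the endothelial-like lung cells, the median share of cells with a UMI was 48.0%. A single gene, the chemokine CCL5, had a lower share than STMN2, at 8.69%. Among 96 other genes near the level of STMN1, the median share was 98.3%, and 8 genes had a share below that of STMN1.

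**Figure D2:**
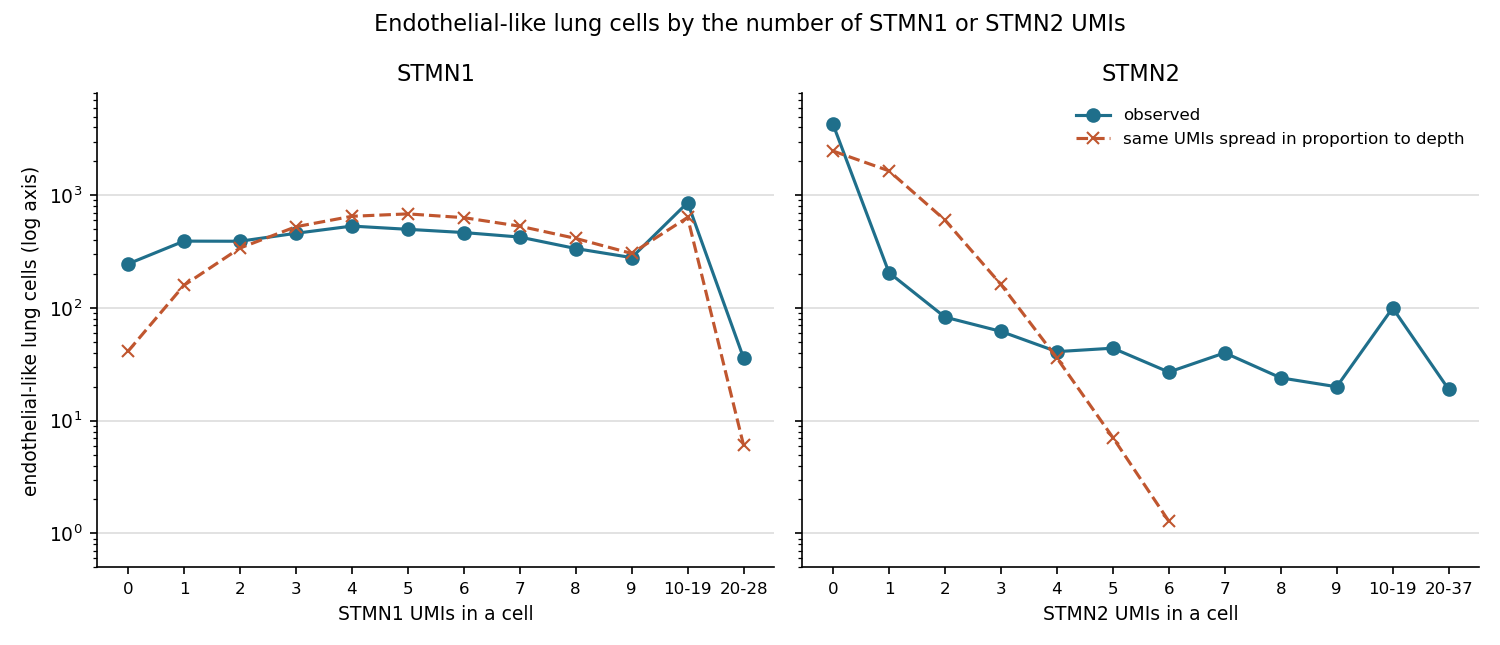
Number of endothelial-like lung cells (log axis) by the number of STMN1 UMIs (left) or STMN2 UMIs (right) in a cell, as observed (circles) and as calculated if the same UMIs were spread in proportion to depth (crosses, not drawn below 0.5 cells). For STMN2 the observed cells exceed the calculated ones at 0 UMIs (4262 cells) and from 4 UMIs upward (19 cells with 20 to 37), and for STMN1 the curves lie closer together.

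Between the tissues STMN2 differed more than STMN1. In the aorta cells under the limit no STMN2 UMI was found in any class, 0 of 160 endothelial-like, 0 of 66 EndMT-like and 0 of 20 collagen-high cells, which allows shares of cells with a UMI of up to 1.88%, 4.55% and 15.0% by a floor of 3 cells, and of up to 2.28%, 5.44% and 16.8% by the exact binomial interval. At median depths of 3829 to 8524 UMIs, a cell without a UMI need not lack the transcript. For the endothelial-like cells, a count of 0 allows up to 2.25 CPM over the group. Against that floor of 3 counts the lung level was at least 31.1-fold higher, and the lower limit of the exact 95% interval of the ratio was 25.3. Of 2916 genes at 50 CPM or more over both tissues, 3.33% were at least 2-fold higher in the lung and 2.26% at least 2-fold lower. STMN2 had the highest bound of all, and STMN1, at 1.73-fold (1.58 to 1.90), was in neither set.

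The deep aorta set gave a tighter limit on STMN2. Its 632 endothelial-like cells held 25 STMN2 UMIs in 4 cells, 0.710 CPM (0.460 to 1.05), at a median of 54981 UMIs per cell. The cells held 14, 7, 3 and 1 UMIs. The lung level was 98.6-fold that of the deep aorta (66.7 to 153). Cells with several UMIs thus occurred in both tissues, at 377 of 4928 in the lung and 3 of 632 in the deep aorta set. The aorta cells with 14, 7 and 3 STMN2 UMIs held 164, 220 and 156 UMIs of endothelial markers and 0, 3 and 2 UMIs of COL1A1 and COL1A2, and their barcodes were not in the lung library. The 142 collagen-high cells held 2 STMN2 UMIs in 2 cells, and the collagen-high lung level was 54.8-fold that (14.4 to 466). That lung level was 2.45 CPM instead of 12.6 CPM without the cells of the highest doublet scores, and 18 of its 48 UMIs lay in 1 cell. Over all 1185 deposited aorta cells there were 27 STMN2 UMIs in 6 cells, and over all 5946 lung cells 3680 in 716, so that the levels before any limit on cells were 0.586 and 64.3 CPM.

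STMN1 differed far less between the tissues. Endothelial-like aorta cells had 340 CPM (309 to 373) under the limit and 511 CPM (504 to 519) in the deep aorta set, with shares of 64.4% and 95.3%, at median depths of 5588 and 54981 UMIs. The lung level was 1.15-fold that of the deep set (1.13 to 1.17). In that comparison 1.0% of 2992 genes were at least 2-fold higher in the lung and 2.27% at least 2-fold lower. STMN1 was in neither set, and STMN2 was under the 50 CPM limit over both tissues and so was not among those genes. In collagen-high cells STMN1 had 363 CPM in the lung and 373 CPM (360 to 386) in the deep aorta, a ratio of 0.973 (0.913 to 1.04). There 0.712% of 2951 genes were at least 2-fold higher and 1.97% at least 2-fold lower in the lung, without STMN1. Under the limit the 20 collagen-high aorta cells had 304 CPM (230 to 395), and the 66 EndMT-like cells had 551 CPM (471 to 640). Of the EndMT-like cells 10.6% were in G1. Within S their level was 568 CPM (447 to 711), against 584 CPM (501 to 678) in endothelial-like cells, and within G2M it was 619 CPM (498 to 760), against 666 CPM (572 to 772), with overlapping intervals.

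Within the deep aorta library STMN1 was 1.37-fold higher in endothelial-like than in collagen-high cells (1.32 to 1.42). Of 3087 genes, 12.8% were at least 2-fold higher and 4.44% at least 2-fold lower in endothelial-like cells, and STMN1 was in neither set. Depth moved with the STMN1 level in the aorta cells under the limit. The 72 cells of endothelial-like cluster 1, with a median of 2379.5 UMIs, had 697 CPM (590 to 819). The 88 cells of cluster 0, with a median of 10703.5 UMIs, had 272 CPM (242 to 304). In the deep set a cluster of 76 cells, with a median of 2280.5 UMIs, shared the leading genes CDA and ISG12(A) with cluster 1. It was left unnamed, so the endothelial-like classes with and without the limit differ in their cells. The part of depth in the level was not tested. In the lung, the quintiles of endothelial-like cells by total UMIs held between 543 and 636 CPM of STMN1.

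The relation to the cell cycle separated the genes. Phases were scored with Seurat's lists, which hold neither stathmin. In the lung, STMN1 was at 405 CPM (396 to 413) in 2136 G1 cells, 638 CPM (625 to 652) in 1277 S cells and 773 CPM (759 to 786) in 1515 G2M cells. No interval overlapped another, and S and G2M cells together held 1.76-fold the G1 level (1.72 to 1.81). At least 1 STMN1 UMI was counted in 89.3% of G1 cells and 99.4% of S and G2M cells, and 3 or more in 61.8% and 92.4%. No class that should lack STMN1 was measured, so the part of free RNA in these shares was not tested. In the collagen-high lung cells the order was the same, with 212 CPM (186 to 240) in G1, 392 CPM (359 to 428) in S and 464 CPM (429 to 502) in G2M.

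In the deep aorta cells, the phases differed more. STMN1 was at 255 CPM (247 to 262) in 327 G1 cells, 623 CPM (605 to 641) in 125 S cells and 823 CPM (806 to 840) in 180 G2M cells. S and G2M cells held 2.91-fold the G1 level (2.81 to 3.01). Under the limit the ratio was 4.70 (3.76 to 5.91), at median depths of 7560 UMIs in G1 and 3508 in S and G2M cells. By phase, the lung level was 1.59-fold that of the deep aorta in G1 (1.53 to 1.65), 1.03-fold in S (0.9896 to 1.06) and 0.939-fold in G2M (0.914 to 0.965). The tissues thus differed most in G1 cells and did not differ in S cells beyond counting error. The share of G1 cells and the leading genes of their clusters also differed between the libraries. So did the median depth of the endothelial-like cells, 9581 UMIs in the lung and 54981 in the deep aorta. The part of these in the phase scores, the G1 difference and the ratios was not tested.

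Of 2917 genes in the endothelial-like lung cells, 2.26% were at least 2-fold higher in S and G2M cells and 0.171% at least 2-fold lower, neither with STMN1 or STMN2. STMN1 ranked 83 from the highest. Of 3078 genes in the deep aorta cells, 4.78% were at least 2-fold higher, with STMN1 among them at rank 67, and 0.91% at least 2-fold lower. The median ratio of all these genes was 1.01 in the lung and 1.03 in the deep aorta.

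STMN2 in the endothelial-like lung cells did not follow the phases in this way. Its lung level was 74.0 CPM (70.3 to 77.8) in G1, 71.5 CPM (67.1 to 76.1) in S and 64.0 CPM (60.2 to 68.0) in G2M, with overlapping intervals in G1 and S. The ratio of S and G2M to G1 was 0.911 (0.852 to 0.974). Its share of cells ran the other way, 12.5% in G1 and 14.4% in G2M, so no order was read from it. The share with 3 or more UMIs was 7.16% (6.11 to 8.34) in G1, 7.83% (6.42 to 9.44) in S and 8.18% (6.85 to 9.68) in G2M. In collagen-high lung cells 34 of the 48 STMN2 UMIs lay in G1 cells, 18 of them in a single cell. In the unnamed lung cells the order was the other way, with 41 UMIs in S and G2M and 7 in G1 and a ratio of 4.21 (1.87 to 11.11). A single G2M cell held 11 of the 41, and the median depth of this class was 2857 UMIs. In the deep aorta 24 of the 25 STMN2 UMIs lay in 3 S or G2M cells, too few cells for a comparison.

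The scores themselves gave the same picture in finer steps. From the lowest to the highest quintile of endothelial-like lung cells by G2M score, STMN1 was at 286, 455, 641, 708 and 804 CPM. By S score it was at 314 and 526 CPM in the lowest quintiles and between 680.5 and 695 CPM in the other 3. The deep aorta cells had 118 CPM in the lowest and 865 CPM in the highest quintile by G2M score, so they began lower and ended higher than the lung cells. STMN2 in the lung lay between 66.0 and 74.8 CPM in all quintiles by G2M score, and between 63.1 and 77.2 CPM by S score.

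**Figure D3:**
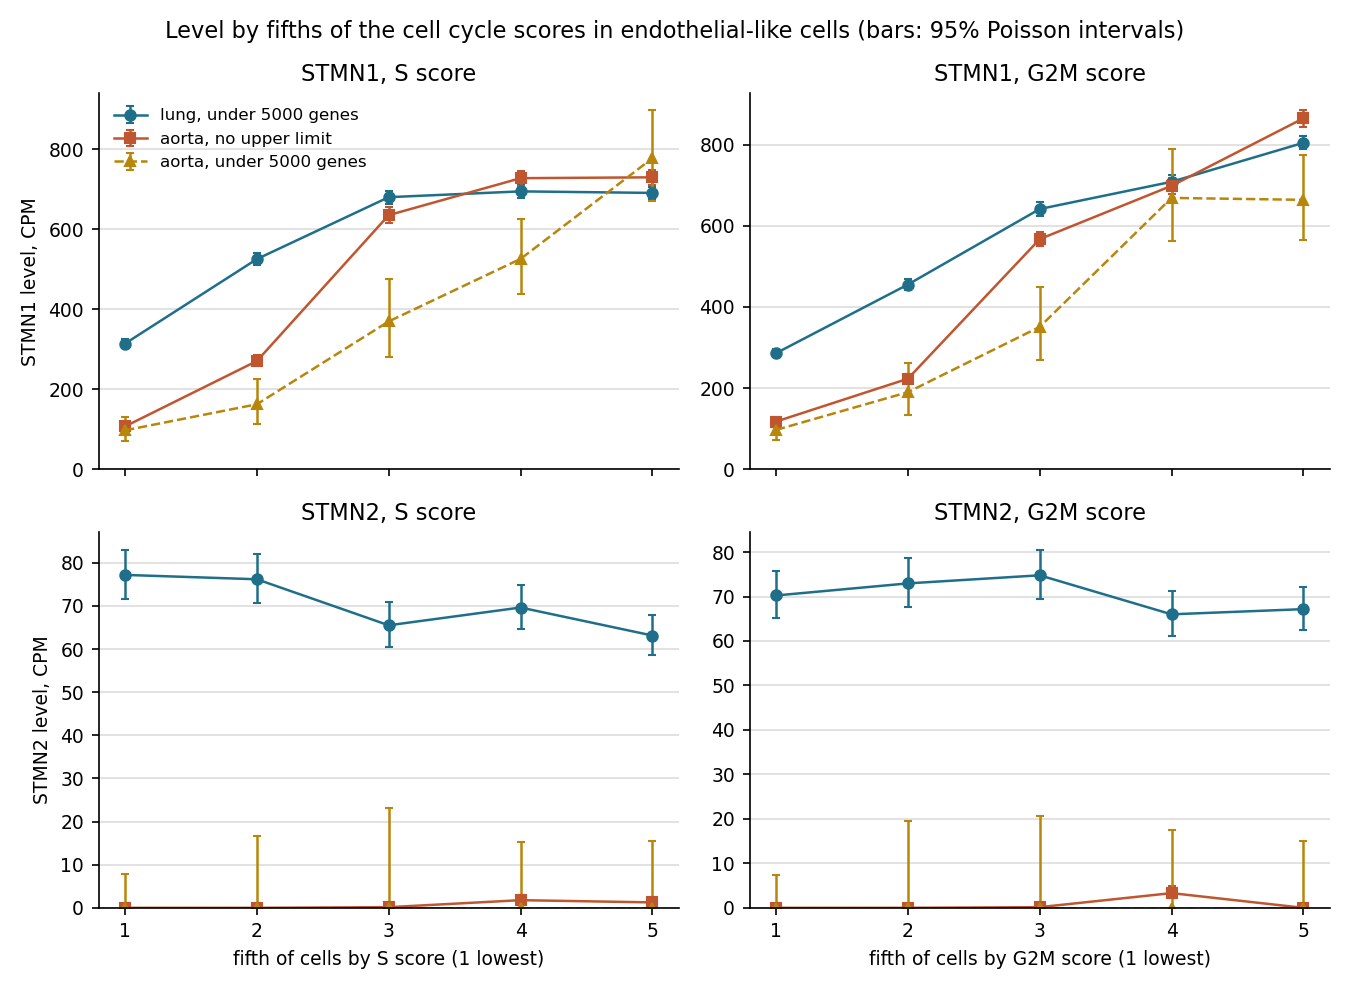
Level in CPM with 95% Poisson intervals of STMN1 (top) and STMN2 (bottom) in quintiles of the endothelial-like cells by S score (left) and G2M score (right), for the lung, the deep aorta set and the aorta under the limit. STMN1 is higher in the highest than in the lowest quintile of both scores in each set, from 286 to 804 CPM by G2M score in the lung. STMN2 in the lung stays between 63.1 and 77.2 CPM. In the aorta under the limit, the median depth was 13158.5 UMIs in the lowest and 3323.5 in the highest quintile by S score. The part of depth there was not tested.

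The tubulins, which stathmins bind, were compared over the same phases. Of 4 alpha tubulin genes, 2 had ratios of S and G2M to G1 whose interval lay above 1 in the lung, with 1.62 (1.602 to 1.64) for TUBA1B, at 2176 CPM the most abundant of them, and 1.80 (1.63 to 1.99) for TUBA1C. Of 6 beta tubulin genes, 5 had enough UMIs, and 4 of these had intervals above 1. TUBB6 had a ratio of 2.27 (2.16 to 2.38), TUBB 1.68 (1.66 to 1.71) and TUBB2B 1.28 (1.24 to 1.31). TUBB4B, at 2.10, is on the list behind the G2M score. The STMN1 ratio in the lung thus lay among those of the abundant tubulins. In the deep aorta the STMN1 ratio of 2.91 was above those of TUBA1B (1.68), TUBB (1.81) and TUBB4B (2.56) and below that of TUBB6 (3.17). The neuronal beta tubulin TUBB3 was at 11.3 CPM in the lung, with a ratio of 1.18 (0.991 to 1.41), and its ratio in the deep aorta was 0.566 (0.425 to 0.751).

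Other genes of microtubule growth and shortening differed more. KIF11, a spindle motor, had a lung ratio of 13.2, KIF2C, a microtubule depolymerase, 8.88, and TPX2, a spindle assembly factor, 6.74, but these and CKAP5 and TACC3 are on the phase lists and had to be high in such cells. Of the other 10 genes of the list, 5 had intervals above 1 and 1 below 1, and their median ratio was 1.09. The highest was 1.41 for KIF2A, another depolymerase. MAP4, which stabilizes microtubules, had a ratio of 0.983 (0.941 to 1.03), and TBCA, a tubulin folding cofactor, 0.932 (0.896 to 0.969). In the deep aorta, 6 of these 10 had intervals above 1 and 2 below, with a median of 1.18. STMN1 lay above all 10 in both libraries.

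Of 14 kinase and phosphatase genes that act on stathmin, AURKB and CDK1 are on the phase lists, with lung ratios of 17.6 and 12.7. CDK2, which is not, had 2.95 (2.57 to 3.41). In the lung, 3 of the 12 genes outside the phase lists had intervals above 1 and 2 below, with a median ratio of 1.00. PPP3CA, the catalytic subunit of calcineurin, had a ratio of 0.887 (0.833 to 0.945), and the stress kinase MAPK8 had 1.15 (0.989 to 1.33). MAPK13, known to phosphorylate stathmin, was at 2.26 CPM. In the deep aorta, 5 of the 12 had intervals above 1 and 1 below. Among 6 genes for stathmin partners, SIVA1, which binds STMN1, had a lung ratio of 1.46 (1.41 to 1.51). CDKN1B, whose product p27 binds STMN1, had 1.26 (1.14 to 1.40), and STAT3 0.884 (0.826 to 0.946). The palmitoyl transferase genes ZDHHC3, ZDHHC7 and ZDHHC15, whose products act on the STMN2 protein, were at 44.7, 14.4 and 7.92 CPM in the lung. In the deep aorta they were at 44.2, 15.6 and 8.61 CPM.

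**Figure D4:**
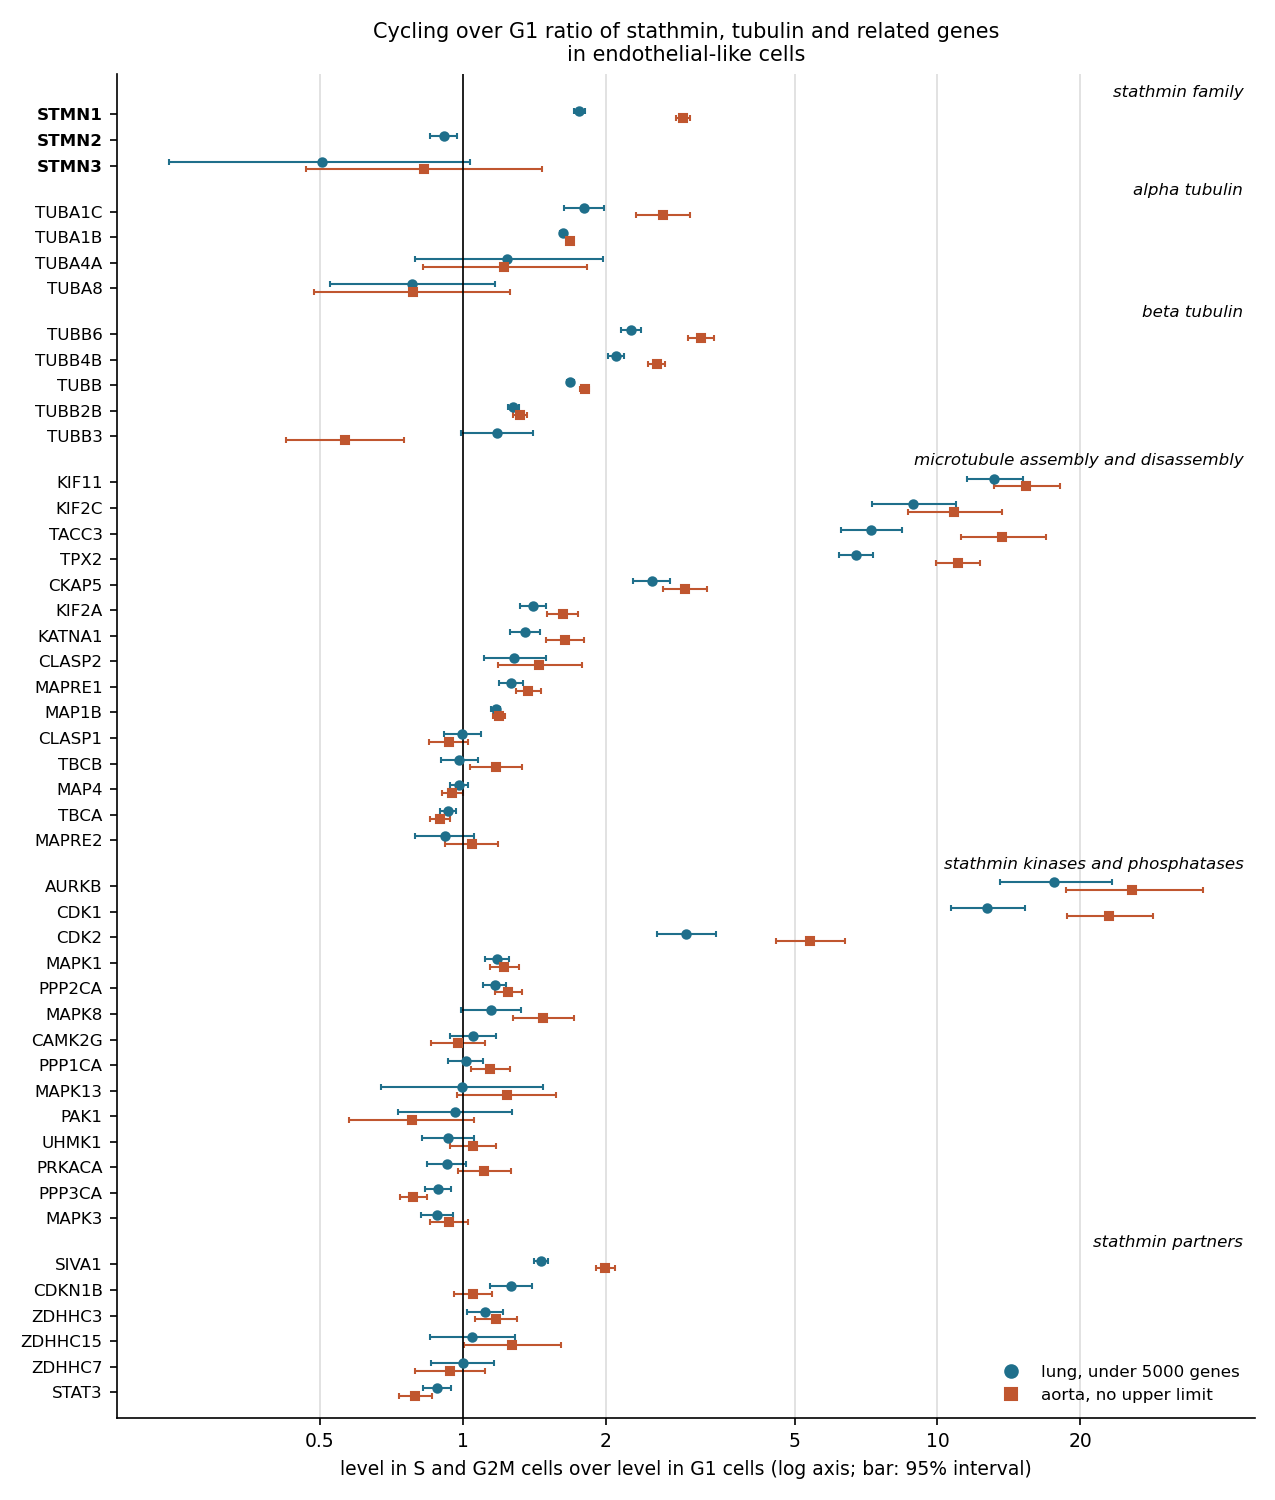
Ratio of the level in S and G2M cells to that in G1 cells (log axis, bars are 95% intervals) for stathmin, tubulin, microtubule, kinase and partner genes in endothelial-like cells of the lung and of the deep aorta set. STMN1 lies at 1.76 in the lung and 2.91 in the deep aorta, in each above the tubulin TUBB and below TUBB6. STMN2 lies at 0.911 in the lung, with no aorta point because the G1 cells held 1 UMI.

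Of 6 genes of arrest and of G1 with enough UMIs, the antiproliferative gene BTG2 had a lung ratio of 0.648 (0.603 to 0.696) and CCND1, whose product cyclin D1 drives passage through G1, 0.876 (0.842 to 0.911). CDKN1B stood alone in this list with an interval above 1 in the lung.

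The genes most like STMN1 across the 4928 endothelial-like lung cells, by Pearson's r of log-normalized values among 7215 genes with a UMI in at least 10% of cells, were H2AFZ (r = 0.614), a histone variant, PTMA (0.554), prothymosin, HMGB1 (0.521) and HMGN2 (0.452), chromatin proteins, and SPC24 (0.430), of the kinetochore. All cells were of 1 library and shared its depth differences, so these are descriptions. In the deep aorta the first 5 were HMGB1 (0.854), H2AFZ (0.846), SPC24 (0.841), PTMA (0.837) and PCLAF (0.837), so 4 genes stood in both sets of 5. In the lung, 149 genes had an r over 0.2 with STMN1, and 0 had one with STMN2. The highest for STMN2 were PPP1R14A (0.111), AKAP12 (0.106), MYL9 (0.106), TPM1 (0.0920) and TNC (0.0913), too weak in sparse counts to be read as a finding. STMN1 and STMN2 had an r of 0.0230 with each other. Over the levels of the 11 lung clusters of 50 cells or more, the genes most like STMN1 were IMMT (r = 0.959), ENSSSCG00000024776 (0.952), ENSSSCG00000031117 (0.952), MIPEP (0.951) and FABP3 (0.938) and those most like STMN2 by OSBPL9 (0.980), PLEKHF1 (0.976) and NRG1 (0.976), where points share a library and most share the endothelial class.

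Endothelial-like lung cells with 3 or more STMN2 UMIs were then set beside those with none. The 377 cells had 762 CPM of STMN2 and 605 CPM of STMN1 (582 to 629), and the 4262 cells without had 587 CPM of STMN1 (580 to 594). The STMN1 ratio was 1.03 (0.989 to 1.07). In G1 cells alone STMN1 was at 402 CPM (371 to 435) with STMN2 and 407 CPM (397 to 416) without. Of the 377 cells 40.6% were in G1, 26.5% in S and 32.9% in G2M, against 43.8%, 25.7% and 30.4% of those without. Their median depths were 10160 and 9547.5 UMIs. The endothelial markers summed to 3309 CPM in the former and 3315 CPM in the latter. Of 12 with enough UMIs, 2 had intervals above 1 and 3 below, with ratios from 0.685 for TEK to 1.996 for KDR.

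Genes as a whole differed little between these cells. The median ratio of 2915 genes was 0.999, with 0 genes at least 2-fold higher and 3 at least 2-fold lower. The 5th and 95th percentiles of these ratios were 0.886 and 1.116. Of 5 beta tubulin genes, 4 had intervals above 1, with ratios of 1.08 (1.05 to 1.11) for TUBB, 1.13 (1.08 to 1.18) for TUBB2B, 1.12 (1.06 to 1.18) for TUBB4B and 1.14 (1.06 to 1.22) for TUBB6. TUBA1B had a ratio of 1.08 (1.06 to 1.10) and MAP1B, a microtubule-associated protein, 1.11 (1.06 to 1.15). The ratios of TUBB, TUBA1B and MAP1B lay between those percentiles of all genes. Those of TUBB2B and TUBB6 lay above the 95th percentile, and that of TUBB4B lay close to it. How many of all genes had an interval above 1 was not counted. Of the 14 kinase and phosphatase genes and the 6 partner genes, 0 had an interval that left out 1. Among genes of contractile and mural cells, MYL9 had a ratio of 1.46 (1.33 to 1.59), NOTCH3 2.61 (1.46 to 4.42) and MYH11 2.05 (0.927 to 4.08), the last with 1 inside its interval. NOTCH3 and MYH11 were at 1.93 and 1.37 CPM over all endothelial-like lung cells. These were the highest of their lists. Of 8 EndMT markers with enough UMIs, 3 had intervals above 1 and 3 below, with a median of 0.989 and the lowest, S100A4, at 0.658 (0.502 to 0.849). Of 4 fibroblast markers, 0 lay above and 1 below, COL3A1 at 0.633.

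Other neuronal transcripts were low in these cells. The 13 neuron markers summed to 14.1 CPM in the endothelial-like lung cells, 11.3 CPM of which was TUBB3, and SNAP25, NEFL and RBFOX3 were at 0 UMIs. In the cells with 3 or more STMN2 UMIs they summed to 15.0 CPM, against 14.3 CPM in those without, with 6 of 13 at 0. DCX, of migrating neurons, was at 0.258 CPM and GAP43, of growing axons, at 0.953 CPM. The 7 measured neuroendocrine markers summed to 2.84 CPM, with CHGA at 0. Of 5 glia markers MBP, at 23.0 CPM, was the single gene over 1 CPM. MBP had a ratio of 1.48 (1.22 to 1.77) between cells with 3 or more STMN2 UMIs and those with none. The other family members were nearly absent, with STMN3 at 0.695 CPM (35 UMIs) in endothelial-like and 4.46 CPM (17 UMIs) in collagen-high lung cells and STMN4 at 0 UMIs in every class.

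Genes known to act on STMN2 were at like levels in both tissues. REST, which represses neuronal genes, was at 63.0 CPM in endothelial-like lung cells and 65.7 CPM in the deep aorta. Its cofactor RCOR1 was at 52.7 and 50.1 CPM, and TARDBP, whose product TDP-43 is needed for full-length STMN2 transcripts, at 61.3 and 62.2 CPM. Between lung cells with 3 or more STMN2 UMIs and those without, the ratios were 1.12 (0.9896 to 1.27) for REST, 0.965 (0.835 to 1.11) for RCOR1 and 1.13 (0.995 to 1.28) for TARDBP, all with 1 inside the interval.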

How the data were processed

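The libraries of cultured lung ECs and cultured aorta ECs, 1 each, were made by a 3′ droplet method. The authors deposited counts, the whole number of UMIs per gene and cell, from Cell Ranger 3.0.2 per the submitters' processing notes, with Sscrofa11.1 as the genome. These raw values still hold cells that the study's limits remove. Of the 22804 features, 7821 carried no symbol, 1047 of which were named from a table of gene names. The stathmins were named in the files. Following the study's methods, a cell was retained at over 200 and under 5000 genes if 12 mitochondrial genes held under 30% of its UMIs. For the aorta this left fewer cells than the study describes, and the deep set was therefore added. Each library was clustered with Seurat 5.3.0 in R 4.3.3 (2000 variable genes without the stathmins and listed genes, 20 principal components, resolution 1), and phases came from CellCycleScoring. A marker was raised at 20 CPM and 2-fold over the rest, and 3 markers were needed for a name. Python 3.11.15, numpy 2.4.6, pandas 2.3.3, scipy 1.17.1, scanpy 1.11.5, Biopython 1.88 and matplotlib 3.10.9 were used otherwise. Scrublet called 3 of 246 aorta and 4 of 5683 lung cells (1.22% and 0.0704%). Since the lung share was below 0.5%, the lung calls were not relied on. No called cell was removed. Removal of the top 5% of scores of the same runs, with new clustering, was an alternative, so the lung value of this setting is uncertain.

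Levels are pooled UMIs per 1000000 with exact Poisson intervals, shares have Clopper-Pearson intervals, and ratios have exact intervals for 2 Poisson counts, all at 95%, and a count of 0 allows 3 counts. A list gene was given a ratio if it had at least 30 UMIs over both groups and over 3 in each. Thinning was to 5200 UMIs per cell. The scripts were tested on simulated data. Named genes were the stathmin family, genes of the fixed lists, up to 4 examples each by level or fold with others added after their values were seen, and the 5 genes most like each member. The members and lists were chosen with earlier results of these data known. The named classes are rebuilt from markers and need not match those of the study. The promoter window, gene positions and coding lengths are from RefSeq on Sscrofa11.1. Protein sequences were not used here, and the sequence before the STMN2 start is not reported here.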

Additional observations from a re-analysis of the deposited data

How the results depend on the processing

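No paired analysis was possible because each tissue had 1 library. Of 91 alternative values, 79 moved by less than the counting interval of the main value. Among these, the aorta STMN2 levels were 0 in every setting that kept the upper limit and could not move. The other 12 were as follows. With no upper limit on genes, the aorta STMN1 level in endothelial-like cells was 511 CPM, against 340 CPM. Its ratio of S and G2M to G1 was 2.91, against 4.70, and the cells named endothelial-like also differed. Without the 5% of cells with the highest doublet scores, the same level was 261 CPM, and the collagen-high STMN2 level in the lung was 2.45 CPM, against 12.6 CPM. As means over cells, the values were 478 CPM for STMN1 in endothelial-like aorta cells, 342 CPM for STMN1 and 7.33 CPM for STMN2 in collagen-high lung cells, and 1.68 for the STMN1 ratio in the lung. With thinned cells they were 299.9 CPM and 209.8 CPM for STMN1 in endothelial-like and collagen-high aorta cells, and 2.91 and 1.70 for the STMN1 ratio in aorta and lung. STMN1 kept a ratio above 1 throughout. For STMN2 in the aorta under the limit no ratio could be computed from 0 UMIs. Its levels there are limited by depth, since 160 cells of a median of 5588 UMIs were measured.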
